A study of Caenorhabditis elegans with 2 samples.

Results

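The 81 histone genes of Caenorhabditis elegans, out of 19973 nuclear protein-coding genes, were examined for peaks of EFL-3, a tagged protein of the E2F family. They comprise every protein-coding gene of the Ensembl annotation whose name begins with his- or hil-, together with htz-1. By type they are 17 H2A, 16 H2B, 15 H3 and 16 H4 genes, the 64 core genes, and 9 linker histone H1 genes, 1 H2A.Z gene, 5 genes of the H3.3 group and 2 short genes, his-39 and his-73. Several core genes carry the same name in Ensembl, where the 81 loci have 59 distinct names, so each locus was given its RefSeq symbol through its WormBase identifier, which made all 81 distinct. Chromatin immunoprecipitation with sequencing (ChIP-seq) had been done on whole L1 larvae of strain OP344, of mixed sex and 6 hours of age, starved after bleaching per the labels. This strain carries unc-119(tm4063) and the insertion wgIs344, which holds F49E12.6 (efl-3) fused to TY1, EGFP and 3xFLAG tags together with unc-119(+). The precipitation was with anti-GFP, although another field of the labels gives efl-3 as the antibody. There was 1 group with 2 biological replicates and no other group, so the results describe where peaks lie and how alike the replicates are.

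Core histones H2A, H2B, H3 and H4 form the nucleosome, and H1 binds the linker DNA between nucleosomes. Most core histones are made in bulk during S phase, when new DNA is packaged, from genes whose mRNAs in animals typically end in a stem-loop in place of a poly(A) tail. Variant histones such as H2A.Z and H3.3 can be deposited outside S phase. E2F proteins are known for control of genes needed for the cell cycle and S phase, and EFL-3 belongs to their atypical branch, with E2F7 and E2F8 in mammals. In C. elegans the core genes lie in clusters, mostly as divergent pairs, H2A beside H2B and H3 beside H4, that share the DNA between their starts.

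The data are 4 peak lists on the ce11 build. Each replicate and the pool of both has a relaxed list of exactly 30000 peaks, about 2.99 pooled peaks per 10 kb, which reaches far into background. The fourth list holds 430 peaks that the authors kept by reproducibility. These were exactly the 430 strongest pooled peaks, so "reproducible" means here a pooled signal of at least 94.83. The signal is the peak caller's enrichment value, has no unit, and was compared only within a list, where pooled values ran from 32.5 to 508.5. A gene was counted where a summit lay in its promoter window, which begins 1000 bp before an annotated transcript start and ends 500 bp after it. For 68 of the 81 histone genes an annotated start was the first base of the start codon. Distances from starts, gaps between starts and promoters given below therefore mix start codons with other transcript starts. Read depth was not analysed here and is unknown, and the lists hold no expression values against which the stage could be checked. With a single group no test between conditions was possible, and counts are set beside those over all genes.

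Reproducible EFL-3 peaks lay at 16 of the 81 histone genes, or 19.8%, against 1.94% of all 19973 genes and 5.17% of the 3749 genes with a divergent partner start within 1000 bp. Such a partner was present at 63 of the histone genes, and 13 of these 63 had a reproducible peak. Divergent partners share peaks, and the 16 genes rested on 10 distinct peaks. Relaxed pooled peaks lay at 31 histone genes (38.3%), near the 43.7% of all genes. The 40 histone genes with mostly repeated windows, had none. Replicate 1 had a peak at 33 histone genes and replicate 2 at 32, while 46 had none in any list. The 50 genes without a pooled peak begin, in gene order, with hil-8, his-73, his-16, his-15, his-14, his-13, his-12, his-11, his-10 and his-9. Where a pooled peak was present, the median signal was 98.5 over the 31 histone genes against 44.8 over all genes with a peak. Both medians count a shared peak once for each gene. The strongest peaks of the 31 genes were 21 distinct peaks, with signals from 34.7 to 393, so not all were strong. Counting every gene, with 0 for no peak, the median was 0 both for the histone genes and for all genes.

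All 4 core types and the linker histones had members in the reproducible set. These were 3 of 17 H2A, 2 of 16 H2B, 4 of 15 H3 and 5 of 16 H4 genes, 1 of 9 H1 genes and the single H2A.Z gene. None of the 5 H3.3 genes or the 2 short genes was among them. With 1.94% of all genes in this set, none among so few is no result about those types. The member with the largest pooled signal was his-68 for H2A, his-4 for H2B, his-32 for H3, his-67 for H4, his-24 for H1 and his-72 for H3.3. With relaxed peaks, present at 43.7% of all genes, the counts were 5 H2A, 4 H2B, 7 H3, 8 H4, 5 H1, 1 H2A.Z and 1 H3.3 gene. The 12 H2A, 12 H2B, 8 H3 and 8 H4 genes without a pooled peak are the 40 genes with mostly repeated windows. Counts of the core types are therefore not a comparison of types.

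**Figure D1:**
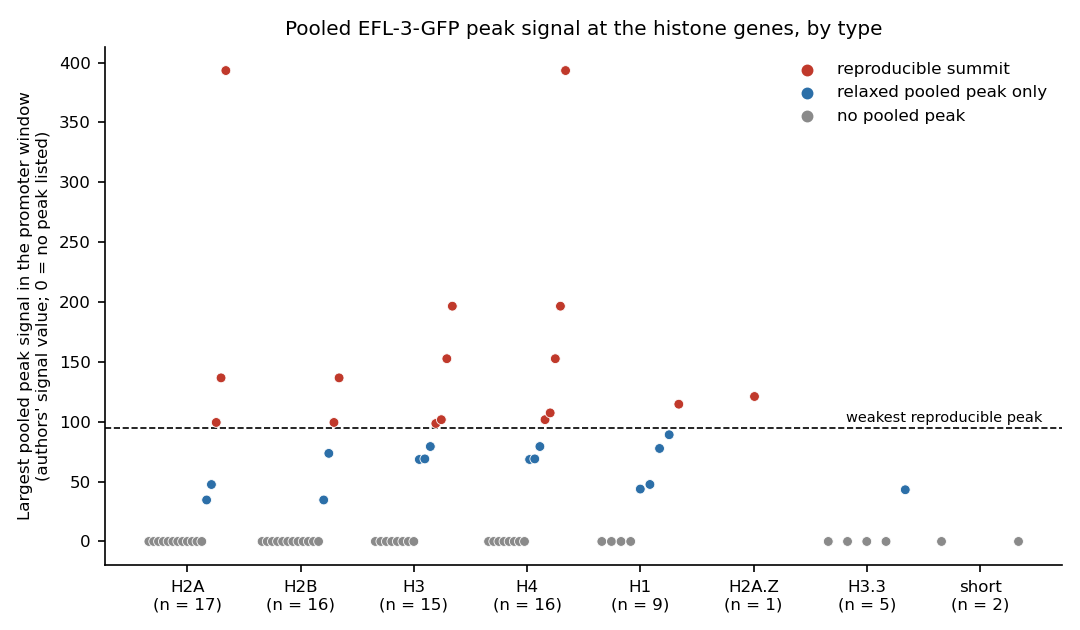
Largest pooled signal in the promoter window of each of the 81 histone genes (points), by histone type, with 0 where no pooled peak was listed. The dashed line marks the weakest reproducible peak, 94.83; the 16 red genes lie above it, and 50 genes lie at 0.

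The strongest histone peak, ranked 5 of the 30000 pooled peaks, lay between his-67, an H4 gene, and his-68, an H2A gene, on chromosome I. Its summit at 9988977 was 214 bp upstream of his-67 and 155 bp upstream of his-68. Its signal was 393 in the pool, 204 in replicate 1 (rank 8) and 184 in replicate 2 (rank 5). This is the only divergent histone pair that joins H2A to H4 among the 31 pairs. The summit also fell in the window of alg-5, an Argonaute family gene, 825 bp from its start.

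The next 3 peaks by signal lay between divergent core pairs on chromosomes IV and V. Between his-31 (H4) and his-32 (H3) the summit at 8334120 of chromosome IV had a pooled signal of 197, with 109 and 98.3 in replicates 1 and 2. Between his-60 (H4) and his-59 (H3) the summit at 7488110 of chromosome IV had 153, with 73.6 and 82.1. Between his-4 (H2B) and his-3 (H2A) the summit at 16040640 of chromosome V had 137, with 56.2 and 81.7. All 3, like that of his-67 and his-68, were among the 430 strongest peaks of each replicate taken alone. The weakest of their ranks was that of his-4 and his-3 in replicate 1, at 386.

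The remaining pairs with a reproducible peak were near the threshold. Between his-5 (H4) and his-6 (H3) the summit at 8535108 of chromosome V had a pooled signal of 102, with 52.4 in replicate 1 and 50.1 in replicate 2. Between his-62 (H2B) and his-61 (H2A) the summit at 7486400 of chromosome IV had 99.4, with 50.2 and 52.0. Their pooled ranks were 363 and 379, and each ranked just below 430 in replicate 1, at 494 and 590, and just above it in replicate 2, at 415 and 370.

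Another 4 reproducible peaks were each in the window of a single histone gene. At htz-1, which encodes the H2A.Z variant, the summit at 4445916 of chromosome IV had 121 in the pool, with 46.4 (rank 802) and 73.8 (rank 140) in the replicates. It lay 300 bp upstream of htz-1 but closer, 176 bp, to the start of wapl-1, which encodes a homologue of the cohesin release factor WAPL. At his-24, a linker histone, the summit at 14490169 of chromosome X had 115 and lay 75 bp downstream of the start. Replicate 1 had a summit of 63.9 at the same base, while replicate 2 had none within 100 bp but a peak of 68.8 elsewhere in the window. This was the only one of the 10 histone summits that was not upstream of the starts it was assigned to. The annotated start of his-24 was not its start codon, whereas both starts were in the divergent pairs above. Sides of the start are thus not directly comparable.

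The last of them differed most between replicates. At his-37, an H4 gene without a divergent histone partner, the summit at 9547024 of chromosome V had 107 in the pool. It ranked 189 in replicate 1, with a signal of 75.6, and 11461 in replicate 2, with 25.4. At his-42, an H3 gene, the summit at 13829367 of chromosome II had 98.5 and lay 670 bp upstream, within 200 bp of the small nuclear RNA gene F08G2.10. It ranked 7751 in replicate 1 and 145 in replicate 2, and 58.9% of the 50-base words in that peak occur elsewhere in the genome. Both thus ranked among the 430 strongest peaks of a single replicate only.

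**Figure D2:**
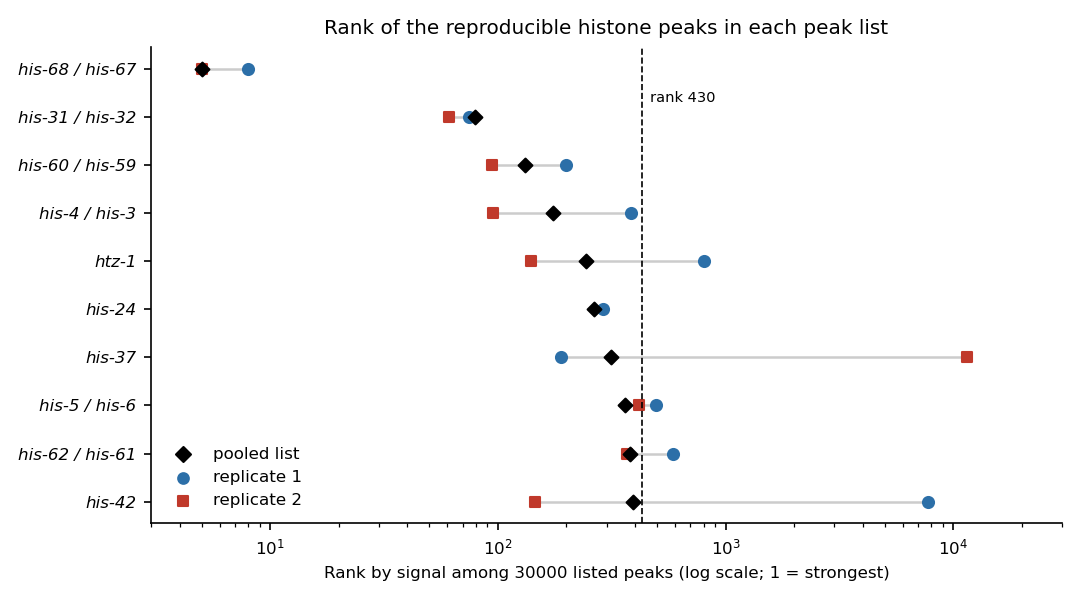
Rank by signal (log scale, 1 is the strongest) of the 10 reproducible histone peaks in the pooled list (diamonds), replicate 1 (circles) and replicate 2 (squares); the dashed line is rank 430. The first 4 rows lie left of the line in every list, while his-37 and his-42 each have 1 replicate far to the right of it, and his-24 has no replicate 2 summit within 100 bp.

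Replicate summits lay within 100 bp of the pooled summit for 9 of the 10 peaks in both replicates, and within 200 bp for all 10. Matched within 100 bp, 6 of the 10 were among the 430 strongest peaks in replicate 1 and 8 in replicate 2, and 4 were so in both. The window of his-24 also held a replicate 2 peak of rank 169, which is not in these counts. A pooled q-value under 0.1 was listed for 8 of the 10, the exceptions being his-62/his-61 and his-42, at 0.115 and 0.118. Over the 15 of the 26 histone peaks, relaxed ones included, that were matched in both replicates, Spearman's rho of the replicate signals was 0.632 and Pearson's r of their log10 values 0.71. This is a description across peaks of the same libraries, against the same control alignment.

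Linker and core genes came next, below the threshold. The strongest was hil-3, an H1 gene, with a pooled signal of 89.1, a summit 43 bp downstream of its start, and window signals of 45.8 and 54.4 in replicates 1 and 2. The H3 and H4 pair his-63 and his-64 had 79.3, with 50.02 and 35.9. The H1 gene hil-7 had 77.7, with 40.1 and 45.0. The H2B gene his-41 had 73.6 from a summit 793 bp upstream, which is closer to mdf-1, a gene of the spindle checkpoint. The H3 and H4 pairs his-40 and his-38, and his-2 and his-1, followed with 69.0 and 68.5. Pooled q-values of these peaks ran from 0.269 at hil-3 to 0.739 at his-2 and his-1. All 5 of the first named loci ranked between 523 and 1490 in the pooled list.

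Of the replacement variants, the H3.3 gene his-72 had a pooled signal of 43.2, close to the median of all pooled peaks, 41.6. The largest signals anywhere in its window were 26.1 in replicate 1 and 24.1 in replicate 2. Within 100 bp of the pooled summit replicate 1 had no peak. Replicate 2 had one of 18.7 there, near the weakest of its list, 18.2. The other H3.3 genes, his-69, his-70, his-71 and his-74, had no pooled peak. For his-71 the replicate lists had none either. The linker-like gene hil-1 also had no peak in any list. A missing pooled peak is common, since 43.7% of all genes had one.

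By position the 81 genes form 29 loci when starts within 5000 bp are joined, 15 clusters that hold 67 genes and 14 genes alone. Reproducible summits lay at 7 of the 15 clusters and 2 of the 14 single genes. No like count over all genes was made for clusters. On chromosome IV both pairs of the cluster of his-59 to his-62 had one, so that all 4 genes were counted. In the cluster of 6 genes from his-29 to his-34 only the middle pair, his-31 and his-32, had a peak. The outer pairs his-29/his-30 and his-33/his-34 were in no list. In the chromosome V cluster of his-1 to his-4 a reproducible peak and a weaker pooled peak of 68.5 stood side by side. In the cluster of 13 genes on chromosome II only his-42 had a peak. In 5 clusters no member had a peak in any list, and they included those of 6 and 8 genes on chromosome V. Every window without a peak in these 5 clusters, in that of his-29 to his-34 and in that on chromosome II was mostly repeated, as described below. Among these 5 clusters, 3 had 1 pooled summit each outside the members' windows but in the cluster or within 1000 bp of it. They were the cluster of 8 genes and those of his-45 to his-48 and his-55 to his-58.

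**Figure D3:**
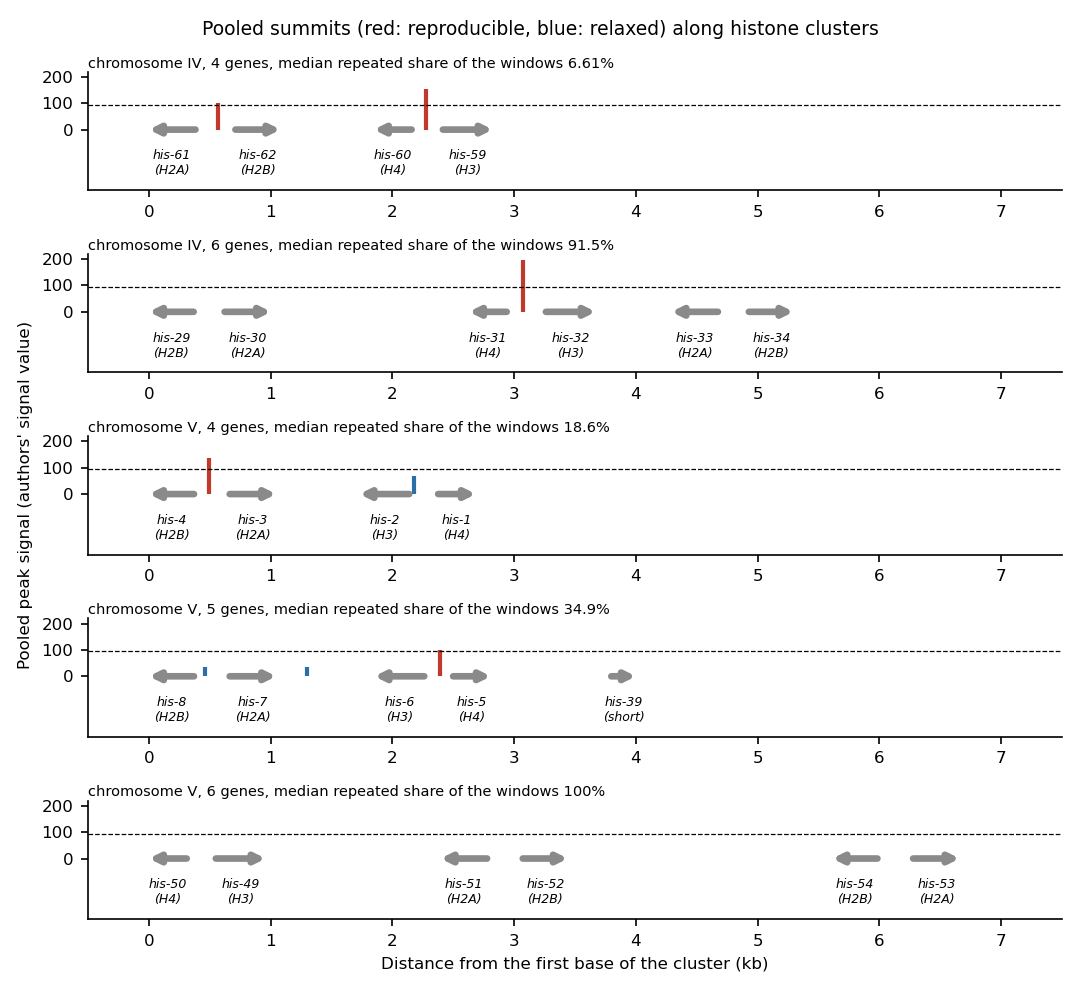
Pooled summits in the members' promoter windows (vertical lines, height is the authors' signal value, red reproducible, blue relaxed) along 5 histone clusters. Pooled summits outside these windows are not drawn. Genes are arrows, distance is from the first base of the cluster in kb, and the dashed line is 94.83. In the second map only the middle pair, his-31 and his-32, has a summit, at 197, and in the last map none of the 6 genes has one.

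Presence of a peak at the core genes followed how much of the window is repeated elsewhere in the genome. The core copies encode near-identical proteins, and all 15 H3 genes and all 16 H4 genes encode 1 protein sequence each. Some copies also share the DNA between their starts. For each promoter window the share of 50-base words that occur again in the genome, on either strand, was taken. In 40 histone windows, all of core genes, this share was over 50%, from 65.9% to 100%, and none of the 40 had a peak in any of the lists. Over all genes, 430 windows (2.15%) were over 50% repeated, and 2.79% of these had a relaxed pooled peak, against 46.1% of windows with at most 10% repeated words. The other 24 core windows, at most 43.8% repeated, all had a pooled peak, and 14 of them a reproducible one. No core window lay between 43.8% and 65.9%.

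Of the 27 histone windows with at most 10% repeated words, 11 (40.7%) had a reproducible summit, against 2.01% of all windows with so few. A pooled peak was present at 18 of them, or 66.7%, against the 46.1% above. The H1, variant and short genes, none above 10.8% repeated, had pooled peaks at 7 of 17. Words of 36 bases gave 41 windows over 50% repeated, of which only that of his-63 had a pooled peak. Whether EFL-3 is absent from the repeated promoters or whether reads from them were not placed cannot be told apart in these lists, because how reads with several matches were mapped is not stated. The 40 genes without a peak in repeated windows are therefore not evidence of no binding.

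**Figure D4:**
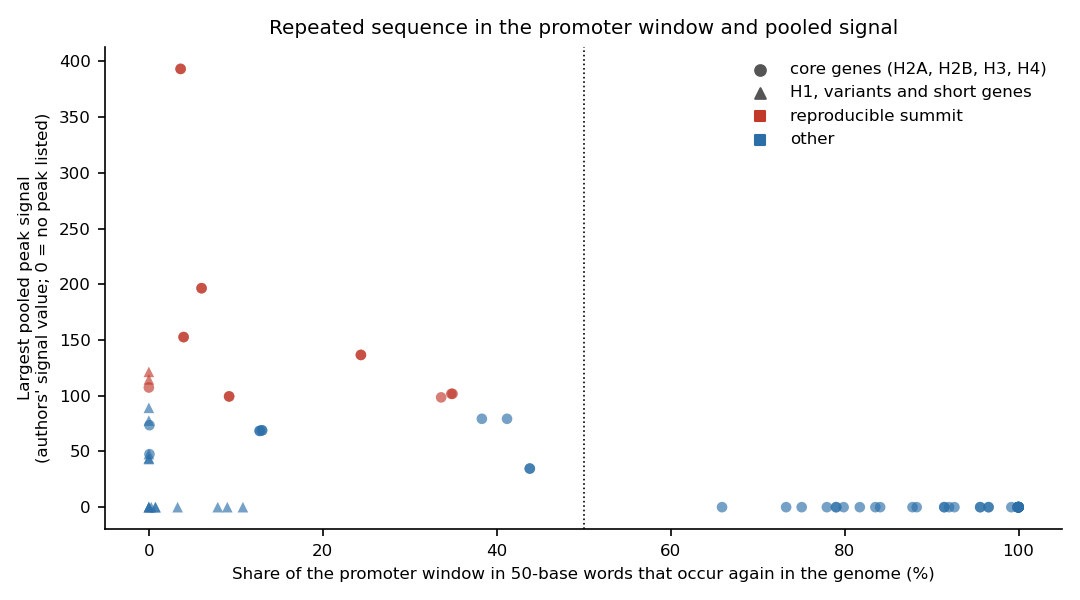
Largest pooled signal against the share of 50-base words of the promoter window that occur again in the genome (%), for the 81 histone genes (circles core, triangles H1, variant and short genes; red with a reproducible summit). All 40 genes to the right of the dotted line at 50% lie at 0, and all 24 core genes to its left lie above 0.

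Among the 31 divergent histone pairs, 16 join H2A to H2B and 14 join H3 to H4, and their starts are 227 to 368 bp apart, with a median of 258 bp. Pooled summits lay between the starts of 10 pairs and reproducible ones between those of 6. The 10 summits were 5.5 to 79.5 bp from the middle of the gap, with a median of 22.8 bp. More than 50% of the DNA between the starts was repeated in 20 pairs, and none of these had a summit. Of the other 11 pairs all but his-35/his-41 had one. That pair has no repeated words between its starts, and both pooled peaks in its windows lay on the his-35 side. The stronger, 73.6, was 793 bp upstream of his-41, and the weaker, 47.6, was 346 bp downstream of the his-35 start.

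The letters of the DNA between the starts of the pairs were compared after the peaks were known. Words of 9 bases were ranked by the number of pairs that hold them, and the first was ATGTGTCCC (GGGACACAT on the other strand), in 20 of the 31. It was in all 6 pairs with a reproducible summit. It was in none of the 5 remaining pairs with at most 50% repeated words, which are his-63/his-64, his-38/his-40, his-2/his-1 and his-8/his-7, with weaker pooled summits, and his-35/his-41. It was also in 14 of the 20 repeated pairs without a peak. In the 6 pairs the nearest copy was 3 to 65 bp from the summit, with a median of 16 bp. The word was chosen for lying in these gaps, which are at most 368 bp long. Short distances were thus partly fixed in advance and are no separate result. Other word lengths kept the order but not the full separation. The commonest 8-base word, GGGGACAC, was in 5 of the 11 less repeated pairs, all 5 with a reproducible summit, and absent from 6, of which 1 had such a summit. The commonest word of 10 bases gave the same counts.

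Sequences that carry this comparison are from the RefSeq assembly of the ce11 build, plus strand, 5′ to 3′, with the shared word and start codons in capitals. Plus-strand genes start with ATG and minus-strand genes with CAT. The reproducible summits of htz-1 and his-42, whose promoters lack the word, are not shown. All stretches shown for genes with a reproducible summit thus hold the word by selection. The first 4 are centred on reproducible summits, at chrIV:8333970-8334269 for his-31/his-32 (197), chrIV:7487960-7488259 for his-60/his-59 (153), chrV:16040490-16040789 for his-4/his-3 (137) and chrV:8534958-8535257 for his-5/his-6 (102).
his-31/his-32: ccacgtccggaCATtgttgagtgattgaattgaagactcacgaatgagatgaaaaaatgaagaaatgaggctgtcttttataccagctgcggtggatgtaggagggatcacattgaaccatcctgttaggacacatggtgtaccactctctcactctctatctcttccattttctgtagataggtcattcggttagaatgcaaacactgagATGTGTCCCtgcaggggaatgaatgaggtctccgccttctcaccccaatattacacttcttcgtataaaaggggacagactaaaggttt
his-60/his-59: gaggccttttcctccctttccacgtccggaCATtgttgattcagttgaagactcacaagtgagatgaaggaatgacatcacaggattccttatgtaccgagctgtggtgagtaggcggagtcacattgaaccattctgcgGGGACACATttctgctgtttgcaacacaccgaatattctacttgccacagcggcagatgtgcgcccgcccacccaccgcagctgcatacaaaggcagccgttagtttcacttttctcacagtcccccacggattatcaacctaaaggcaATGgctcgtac
his-4/his-3: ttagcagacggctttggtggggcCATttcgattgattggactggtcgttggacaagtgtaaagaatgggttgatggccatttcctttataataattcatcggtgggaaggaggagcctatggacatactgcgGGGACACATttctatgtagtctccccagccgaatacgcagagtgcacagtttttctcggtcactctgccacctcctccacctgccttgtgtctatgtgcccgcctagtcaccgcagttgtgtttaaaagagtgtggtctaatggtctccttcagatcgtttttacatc
his-5/his-6: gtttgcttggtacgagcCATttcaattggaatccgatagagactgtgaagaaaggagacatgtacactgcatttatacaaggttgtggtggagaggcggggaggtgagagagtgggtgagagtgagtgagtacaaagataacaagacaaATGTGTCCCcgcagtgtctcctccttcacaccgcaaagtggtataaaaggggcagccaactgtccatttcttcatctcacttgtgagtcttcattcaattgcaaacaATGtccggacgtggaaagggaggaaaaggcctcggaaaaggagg

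Also shown, against them, are stretches without a reproducible summit, centred between the starts. The pair his-63/his-64, at chrIV:11406838-11407137, had a pooled signal of 79.3 and holds no copy of the word. The pair his-14/his-13, at chrII:13819923-13820222, holds the word, is repeated throughout and had no peak in any list.
his-63/his-64: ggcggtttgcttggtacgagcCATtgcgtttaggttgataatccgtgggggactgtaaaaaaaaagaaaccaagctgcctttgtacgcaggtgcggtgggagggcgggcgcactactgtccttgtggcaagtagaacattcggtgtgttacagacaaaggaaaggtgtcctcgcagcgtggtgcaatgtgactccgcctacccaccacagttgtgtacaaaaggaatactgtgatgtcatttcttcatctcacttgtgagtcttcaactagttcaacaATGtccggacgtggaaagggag
his-14/his-13: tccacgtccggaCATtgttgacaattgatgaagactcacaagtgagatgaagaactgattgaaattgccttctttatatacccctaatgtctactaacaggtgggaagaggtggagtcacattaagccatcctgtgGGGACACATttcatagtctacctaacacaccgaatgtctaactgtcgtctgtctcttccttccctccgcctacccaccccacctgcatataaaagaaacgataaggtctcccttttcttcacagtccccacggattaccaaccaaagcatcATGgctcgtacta

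The word also stands upstream of genes outside the pairs. For the linker histone his-24 (chrX:14489944-14490093) and the H4 gene his-37 (chrV:9546955-9547104), the 150 bases before the annotated start are shown. The his-24 stretch does not reach its summit, which lies 75 bp downstream of the start. The word lies 57 bp and 96 bp upstream of these starts, and the run of letters that the promoters share around it is 20 bases long.
his-24: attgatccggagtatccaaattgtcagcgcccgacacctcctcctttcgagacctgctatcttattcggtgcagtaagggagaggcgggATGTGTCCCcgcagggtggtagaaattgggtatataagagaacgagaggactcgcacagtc
his-37: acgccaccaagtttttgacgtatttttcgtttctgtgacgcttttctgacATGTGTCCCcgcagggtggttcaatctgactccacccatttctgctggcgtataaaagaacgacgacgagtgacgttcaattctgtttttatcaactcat

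Over promoters of 300 bases (250 before to 50 after the start) the word was in 47 of the 81 histone genes, or 58.0%, against 0.121% of the 19892 other genes. This excess follows from the choice of the word as the commonest in the pairs and is no separate result. Of the 16 histone genes with a reproducible summit 14 held it, the exceptions being htz-1 and his-42. Among histone genes with at most 50% repeated words in the window, 19 held it, of which 14 had a reproducible and 17 a pooled summit. Of the 22 without it, 2 had a reproducible and 14 a pooled summit. Both genes of a pair are counted for the same site and summit, so these genes are not separate cases. The 14 with a reproducible summit are both genes of 6 pairs, with his-24 and his-37 outside the pairs. The word was chosen from the pairs after the peaks were known. The contrast between genes with and without it is therefore no separate result. The 2 less repeated genes with the word but no pooled peak were the linker gene hil-4 and the H3.3 group gene his-69.

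Linker histone genes show that the word is not always accompanied by a strong peak. It was in 5 of the 9 H1 promoters, 55 bp upstream of the start in hil-2, hil-4 and hil-5, 57 bp in his-24 and 70 bp in hil-3. Of these his-24 had a reproducible summit. In hil-3, with the strongest peak below the threshold, the word was 113 bp from the summit. In hil-5 and hil-2 the strongest pooled summits, at 47.6 and 43.8, were 760 and 520 bp from it, and hil-5 had a weaker pooled summit, at 42.4, on its start, 55 bp from the word. The reproducible summit of his-24 was 132 bp from the word. Outside the histone genes the word was in 24 promoters, none at a site shared with a histone promoter. Of these 4.17% had a reproducible summit and 37.5% a pooled one, against 1.94% and 43.7% of all genes. The single gene of the 24 with a reproducible summit was K07C5.13, named after its values were seen. Within 100 bp of the summit the word was found at 7 of the 10 histone peaks. Over all 430 reproducible peaks it was found at 9 (2.09%), those 7 included. The word was chosen from the pairs, which supply 6 of the 7, so this excess is no separate result.

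**Figure D5:**
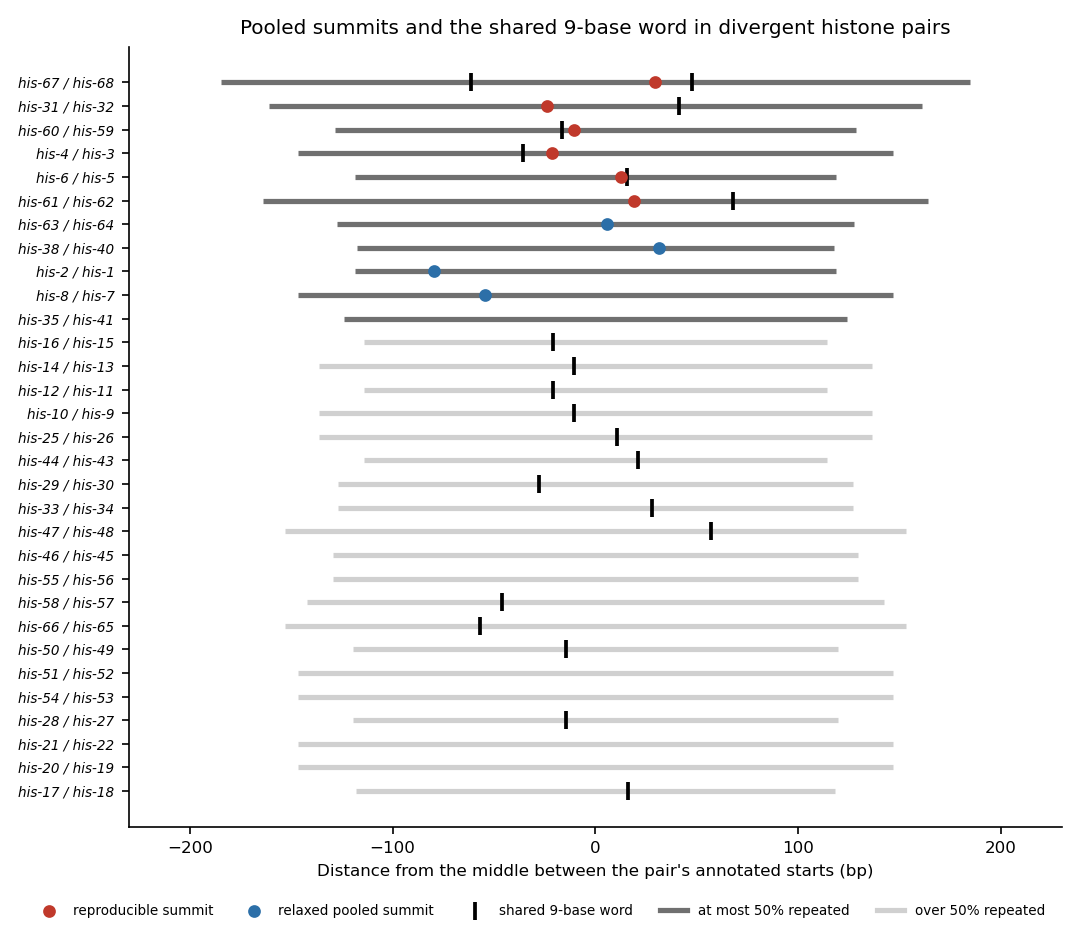
The DNA between the starts of the 31 divergent histone pairs (bars, dark where at most 50% of 50-base words are repeated), centred on the middle between the starts, with pooled summits (red reproducible, blue relaxed) and copies of the shared 9-base word (ticks); the axis is in bp. The top 6 pairs have both a red summit and a tick, the next 5 have no tick, and the 20 pale pairs have no summit.

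Known promoter words were looked for on both strands as a description. Promoters of the 31 divergent pairs overlap, and 40 histone windows are mostly repeated sequence. A site can therefore be counted for more than 1 histone gene, and the histone shares are not of separate promoters. The E2F words TTTCCCGC, TTTGGCGC, TTTCGCGC and TTTGCCGC were in 2 of the 81 histone promoters, or 2.47%, against 4.69% of all promoters, too few to tell from that share. They stood within 100 bp of 1 of the 10 histone summits, that of his-37, against 7.44% of all reproducible summits. The GC-box-like word CCGCCC was in 39.5% of histone promoters and 7.83% of all, and TATAAA in 63.0% and 37.9%. The words TTTGAA or TTCGAA were in 21.0% against 68.9%. CCAAT was in 53.1% and 45.5% of promoters. It was within 100 bp of none of the 10 histone summits, against 129 of the 430 reproducible ones, and of 8 of the 16 relaxed histone peaks. With several words searched, none among 10 summits is no separate result. GAGAGAGA was in 2.47% and 3.54%, and the octamer ATTTGCAT in none of the 81 against 2.86%. A match is a description of the letters, and its absence says nothing about the factor.

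Genes whose products process histone mRNAs or carry and place histones are a related group. Of 21 such genes 1 had a reproducible summit and 11 a pooled one, which is near the shares of all genes, 1.94% and 43.7%. The former was lin-53, which encodes a histone-binding protein of the RbAp46/48 family, with a pooled signal of 145, rank 148, and ranks of 143 and 210 in the replicates. The largest of the rest was hira-1, which encodes an H3.3 chaperone, with 76.2. The stem-loop binding protein gene cdl-1, whose product binds the end of histone mRNAs, had 64.1. The genes of the centromeric H3 proteins, hcp-3 and cpar-1, had no pooled peak.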

How the data were processed

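Peak lists from 2 replicates, from their pool and from an IDR (irreproducible discovery rate) step were used as deposited, on ce11 and against a shared control alignment, per the labels' file descriptions. The authors' signal value and −log10 q-value were taken from the deposited narrowPeak columns, and q-values were computed from the latter. The sources used here do not give aligner, peak caller, IDR threshold or depth, so no counting interval is given. Replicates vary only as much as these 2 samples show, and no p-value was computed.

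Genes came from Ensembl release 115 (WBcel235, the assembly of ce11) and symbols and sequence from RefSeq. Summits were joined to windows, words counted and repeated 50-base words found with Python 3.11.15, pandas 2.3.3 and numpy 2.4.6; these steps were tested on simulated data. Alternatives were other windows, nearest starts, replicates alone, stricter peaks and cluster gaps. Members, lists and naming rule (bound members, the strongest of each type, 5 below the threshold, chosen variants and supply genes) were chosen with earlier results of these data known. The shared word, the repeated-word classes and the comparison sequences were chosen after seeing the data. Protein sequences were not shown.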

Additional observations from a re-analysis of the deposited data

How the results depend on the processing

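The counts of 16 genes and 10 peaks in the reproducible set stayed within 1.5 times with windows of 500 bp upstream to 200 bp downstream (15 genes, 9 peaks) or 2000 bp upstream (20 genes, 10 peaks), with peak intervals in place of summits, and without peaks of repeated words (11 genes, 7 peaks). With each peak given to its nearest start only, 9 genes had a reproducible and 20 a relaxed pooled peak, by construction, since divergent partners no longer share. With peaks strong in each replicate 8 genes, 4 peaks and 4 of the 9 loci remained as counts, and the stronger 215 of the 430 peaks gave 8, 4 and 4. The strongest 430 peaks of single replicates gave 10 to 16 genes, 6 to 10 peaks and 6 to 9 loci; the lower values are those of replicate 1, without replicate 2. A pooled q-value under 0.1 left 13 of 31 genes with a relaxed peak, and windows with few repeated words, an alternative added after seeing the data, 18. No paired analysis was possible because there is a single group and no test.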
